A study of Mus musculus with 4 samples.

Results

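Germline genes are switched on in germ cells for meiosis, for silencing of transposons and for the control of germ cell RNAs, and most somatic cells keep them silent. In mouse embryos their promoters gain DNA methylation around implantation, and ESCs, which resemble the epiblast before implantation, transcribe part of this programme at low to moderate levels. Their repressors in ESCs include the polycomb complex PRC1.6, which carries the DNA-binding factors MGA, MAX and E2F6, and the DNA methyltransferases. The 10 germline genes described here were Sohlh2, Dazl, Mael, Taf7l, Tex19.1, Ddx4, Sycp1, Sycp3, Hormad1 and Stag3. They were chosen by name, with the fall of Sohlh2 between the culture conditions already known, and were found by Ensembl identifier. All 10 were among the 37620 genes of the raw count table and among the 15462 genes of the normalized table.

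The cells were R1 mouse ESCs, of strain 129/Sv, either wild type (WT) or with the Cripto gene knocked out (Cripto KO). Cripto, encoded by Tdgf1, is a membrane-anchored co-receptor of the Nodal and Activin pathway. Each genotype was sequenced in serum/LIF, which keeps ESCs self-renewing, and after 6 days in F/A, a medium with bFGF and 20 ng/ml Activin A in which ESCs are converted towards epiblast stem cells (EpiSCs), the primed state of pluripotency. Both F/A cultures carry the label EpiSC and both serum/LIF cultures the label ESC. The study worked with more than 1 Cripto KO clone, and which of them gave the libraries is not given in the sources used here. There was 1 library for each of the 4 conditions, so no difference below has a replicate check, and no p-value is given. The intervals in brackets are 95% intervals for counting error only, from the exact binomial (Clopper-Pearson) method, and they do not hold the spread between cultures.

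The libraries held 17315442 counts (WT, serum/LIF), 15230856 (WT, F/A), 16260578 (Cripto KO, serum/LIF) and 15740587 (Cripto KO, F/A). In the Cripto KO F/A library 3 genes had an odd count, against 53.1% to 53.6% of genes with counts in the other libraries, so that each read there was taken as 2 counts. A count of 0 was read against a floor of 3 counts, or 6 counts in that library. Tdgf1 had 18714 and 1572 counts in the WT libraries and 945 and 86 in the Cripto KO libraries, in serum/LIF and F/A respectively. It was 17.5-fold lower in Cripto KO in serum/LIF and 17.8-fold lower in F/A, in the direction of the labels. The 5 naive ESC markers found in the files summed to 3221 CPM (raw counts scaled to a common library total) in WT and 2862 in Cripto KO in serum/LIF, and to 28.5 and 45.5 in F/A. The sum of the 6 primed markers went the other way, from 104 to 1220 CPM in WT and from 91.4 to 643 in Cripto KO. In Cripto KO 4 of the 5 in the normalized table were at least 2-fold higher in F/A. The other, Otx2, named after its values were seen, went from 1023 to 678 counts there, and from 1307 to 2375 in WT. The 4 markers of 2-cell-like cells found in the files, a rare cell state in ESC cultures, summed to 12 and 22 counts in the serum/LIF libraries and to 0 in both F/A libraries. The 6 markers of gonadal somatic cells summed to 10.3 and 10.5 CPM in serum/LIF and to 16.8 in both F/A libraries. Those in the normalized table were Foxl2, Inha and Star, which did not move together. Foxl2 had 1 and 2 counts in serum/LIF and 74 and 104 in F/A, and Inha 19 and 28 and then 84 and 74. Star had 147 and 132 and then 89 and 66.

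The promoters of the 10 genes were read from RefSeq on GRCm38.p6, in windows from 250 bases before to 50 bases after the annotated start. All 10 genes matched, with 11 windows because Hormad1 has 2 annotated starts. Both strands were searched for the E-box CACGTG, which reads the same on both strands and is bound by MAX dimers, and for an E2F-type site, GCGGGAA or its reverse complement TTCCCGC. The E-box was found in 7 of the 10 genes (Mael, Taf7l, Ddx4, Sycp1, Sycp3, Hormad1 and Stag3), and the E2F-type site in 4 (Ddx4, Sycp3, Hormad1 and Stag3). By window, 72.7% of those of the 10 genes held the E-box and 45.5% the E2F-type site. Among all 32851 RefSeq promoters, 7.15% held the E-box and 4.6% the E2F-type site. The shares were 9.77% and 7.94% among the 13169 promoters of genes kept after normalization. No test was made of this difference, since the genes were chosen by hand and the windows hold no measurement of binding.

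Below are the 250 bases upstream of the start for 6 of the genes. They were picked to show both kinds of promoter: Sohlh2, the gene with the most extreme values and neither motif, Mael and Sycp1 with an E-box alone, and Ddx4, Sycp3 and Hormad1 with both motifs. Capitals mark the E-box and the E2F-type site. The coordinates are those of GRCm38.p6, and each sequence is read 5′ to 3′ along the strand of its gene.
Sohlh2 (chr3:55181794-55182043, plus strand): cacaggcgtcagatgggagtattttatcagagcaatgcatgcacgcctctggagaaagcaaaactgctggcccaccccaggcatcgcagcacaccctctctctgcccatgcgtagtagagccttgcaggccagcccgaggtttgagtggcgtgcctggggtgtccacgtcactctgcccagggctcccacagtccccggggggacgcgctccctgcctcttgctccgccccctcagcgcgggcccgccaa
Mael (chr1:166238745-166238994, minus strand): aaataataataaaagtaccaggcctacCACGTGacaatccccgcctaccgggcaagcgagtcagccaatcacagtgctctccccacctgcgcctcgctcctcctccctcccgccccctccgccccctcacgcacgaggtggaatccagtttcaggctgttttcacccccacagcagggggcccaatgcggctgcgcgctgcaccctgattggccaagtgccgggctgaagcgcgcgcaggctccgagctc
Ddx4 (chr13:112652311-112652560, minus strand): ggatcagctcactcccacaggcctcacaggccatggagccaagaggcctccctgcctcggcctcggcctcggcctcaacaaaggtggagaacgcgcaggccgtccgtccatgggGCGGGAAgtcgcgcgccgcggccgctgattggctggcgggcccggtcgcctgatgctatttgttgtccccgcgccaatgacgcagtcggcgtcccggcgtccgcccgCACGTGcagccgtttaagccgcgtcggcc
Sycp1 (chr3:102936101-102936350, minus strand): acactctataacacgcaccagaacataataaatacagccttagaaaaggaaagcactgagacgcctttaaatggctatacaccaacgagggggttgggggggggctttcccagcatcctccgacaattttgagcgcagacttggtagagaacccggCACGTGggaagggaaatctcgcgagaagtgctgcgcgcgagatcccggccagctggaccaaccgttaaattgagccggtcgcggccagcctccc
Sycp3 (chr10:88459337-88459586, plus strand): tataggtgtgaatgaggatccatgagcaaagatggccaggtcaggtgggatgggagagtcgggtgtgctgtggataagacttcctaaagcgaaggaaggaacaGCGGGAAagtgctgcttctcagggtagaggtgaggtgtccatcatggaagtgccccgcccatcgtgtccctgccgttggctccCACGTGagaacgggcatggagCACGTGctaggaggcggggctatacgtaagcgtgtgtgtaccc
Hormad1 (chr3:95559427-95559676, plus strand): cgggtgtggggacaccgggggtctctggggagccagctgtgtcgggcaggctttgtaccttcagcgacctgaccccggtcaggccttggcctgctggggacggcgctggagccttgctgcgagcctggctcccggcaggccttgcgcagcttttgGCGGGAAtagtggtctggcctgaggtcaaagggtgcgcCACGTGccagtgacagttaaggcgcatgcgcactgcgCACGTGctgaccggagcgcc
Sycp3 and Hormad1 each had the E-box at 2 places, with first bases 64 and 43 bases before the start in Sycp3 and 57 and 20 bases before it in Hormad1. In these genes the E2F-type site lay further upstream, at 147 and 95 bases before the start. In Ddx4 the E2F-type site lay 136 and the E-box 29 bases before the start. The E-box of Mael was the most distant of the set, at 223 bases, and that of Taf7l, 49 bases before the start, was the only motif found there. Dazl, Sohlh2 and Tex19.1 had neither motif in the window. The windows of the 10 genes were close in CpG content to those of other transcribed genes, with a median observed to expected CpG ratio of 0.78 against 0.73 for genes in the normalized table and 0.38 for all promoters. Among the 10 genes this ratio ran from 0.54 in Sohlh2 to 1.06 in Stag3.

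**Figure D1:**
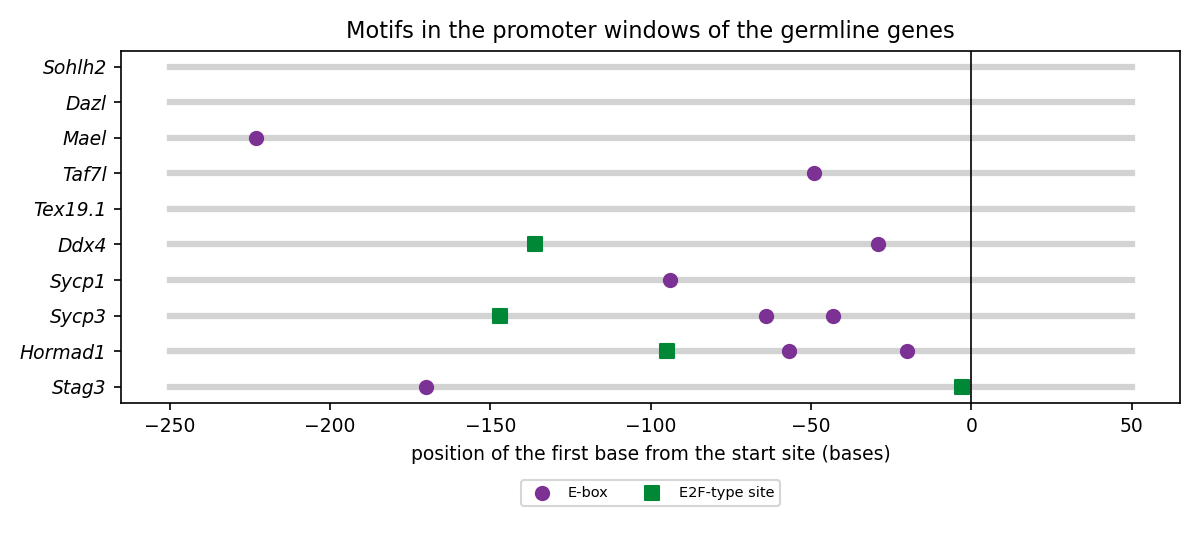
Positions of the E-box (circles) and the E2F-type site (squares) in the promoter windows of the 10 genes, with the horizontal axis giving the distance in bases of the first base of each motif from the annotated start at 0. The E-box appears in 7 genes, and Sohlh2, Dazl and Tex19.1 have neither motif.

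Sohlh2, Dazl and Taf7l are regulators in germ cells. Sohlh2, a basic helix-loop-helix transcription factor of spermatogonia and oocytes (chr3:54985950-55013879 of mm9, plus strand, 11 exon blocks), had 3093 counts in WT and 2141 in Cripto KO in serum/LIF, and 0 in both F/A libraries. Dazl, an RNA-binding protein that controls translation in germ cells (chr17:50418719-50432924, minus strand, 12 exon blocks), had 541 and 147 counts in serum/LIF and 0 in both F/A libraries. Neither gene left a count in F/A, and the Cripto KO value of Dazl in serum/LIF stood well below that of WT. Taf7l, a germ cell paralogue of the TFIID subunit Taf7 (chrX:130994657-131011029, minus strand, 14 exon blocks), had 439 and 230 counts in serum/LIF and 2 in each F/A library.

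In F/A the values of Sohlh2 and Dazl were at least 907-fold and at least 159-fold lower than in serum/LIF in WT. The same bounds were at least 345-fold and at least 23.7-fold in Cripto KO, where the starting level was lower and the floor higher. Taf7l was 185-fold lower in WT (interval 50.9 to 1532) and 97.4-fold lower in Cripto KO (17.3 to 3864). Its wide intervals follow from the 2 counts left in each F/A library, and in Cripto KO each read was taken as 2 counts. Both F/A values of Taf7l were under the floor, so its folds are not on one scale with the bounds for genes at 0. In bulk RNA, fewer cells that transcribe a gene and less RNA in each cell cannot be told apart, which holds for each value below.

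Mael, Tex19.1 and Ddx4 act in transposon control and in the germ granules of germ cells. Mael, a component of the piRNA machinery (chr1:168131516-168168875, minus strand, 12 exon blocks), had 1158 counts in WT and 541 in Cripto KO in serum/LIF, and 1 and 2 counts in F/A. Tex19.1, a protein that restrains retrotransposons in germ cells and placenta (chr11:121007457-121009633, plus strand, 2 exon blocks), had 999 and 719 counts in serum/LIF and 8 and 12 in F/A. Ddx4, the Vasa RNA helicase and a classical germ cell marker (chr13:113388541-113442518, minus strand, 22 exon blocks), had 498 and 493 counts in serum/LIF and 14 and 8 in F/A. For all of these the serum/LIF libraries lay far above the F/A libraries, and the Ddx4 counts of the 2 genotypes in serum/LIF were nearly equal.

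In WT the F/A value of Mael was 1494-fold lower than the serum/LIF value (interval 268 to 59060), a ratio that rests on 1 count. It was 222-fold lower in Cripto KO (39.7 to 8798), on 2 counts where each read was taken as 2. Both F/A values of Mael were under the floor, so these folds are not on one scale with the bounds given for genes at 0. Tex19.1 was 113-fold lower in WT (57.3 to 263) and 50.9-fold lower in Cripto KO (23.3 to 139). Ddx4 was 31.7-fold lower in WT (18.7 to 58.5) and 50.8-fold lower in Cripto KO (19.7 to 187). The intervals of WT and Cripto KO overlapped for each of these genes.

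Hormad1, Stag3, Sycp1 and Sycp3 build the meiotic chromosome axis and the synaptonemal complex, the protein zipper that joins homologous chromosomes. Hormad1, an axis protein that marks unsynapsed chromosomes (chr3:95363599-95391593, plus strand, 16 exon blocks), had 519 counts in WT and 309 in Cripto KO in serum/LIF, and 0 in both F/A libraries. Stag3, the meiotic cohesin subunit (chr5:138721468-138753621, plus strand, 32 exon blocks), had 3741 and 2964 counts in serum/LIF and 395 and 206 in F/A. Stag3 thus kept the highest count of the set in WT F/A and in Cripto KO F/A. Sycp3, an axis protein of the lateral elements (chr10:87922314-87935981, plus strand, 8 exon blocks), had 441 and 895 counts in serum/LIF and 25 and 20 in F/A. Its serum/LIF value was higher in Cripto KO than in WT. Sycp1, the transverse filament protein (chr3:102622422-102740023, minus strand, 34 exon blocks), had 173 and 131 counts in serum/LIF and 217 and 106 in F/A.

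In F/A against serum/LIF Hormad1 was at least 152-fold lower in WT and at least 49.9-fold lower in Cripto KO. Stag3 was 8.59-fold lower in WT (interval 7.75 to 9.56) and 14.2-fold lower in Cripto KO (11.7 to 17.5), and these intervals did not overlap. The part of transcript length in this difference, with the trends given below, was not tested. Sycp3 was 15.9-fold lower in WT (10.7 to 24.9) and 38.9-fold lower in Cripto KO (21 to 81.3). Sycp1 did not share this pattern. Its value in F/A was 1.38 times that in serum/LIF in WT (1.13 to 1.7) and 0.793 times that in Cripto KO (0.565 to 1.1). Its counts over the 4 libraries ran from 106 to 217, so that the culture conditions overlapped.

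Sycp3 carries a limit that the other members do not. By their coordinates its exons overlap on the opposite strand with those of Chpt1, an enzyme of phosphatidylcholine synthesis. In a separate alignment of transcripts the 2 genes shared a stretch of 338 aligned bases with 99.4% identity. The strand setting of the counting is not given in the sources used here, so that reads of the 2 genes where their exons overlap may not be separated. Chpt1 had 410 and 544 counts in serum/LIF and 125 and 210 in F/A, for WT and Cripto KO respectively, and was 1.45 times as high in Cripto KO as in WT in serum/LIF (1.27 to 1.65). The part of Chpt1 reads in the Sycp3 values was not tested. No other member overlapped a gene or had a near-identical stretch in a transcript of another protein-coding gene, at 95% identity over 100 bases.

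**Figure D2:**
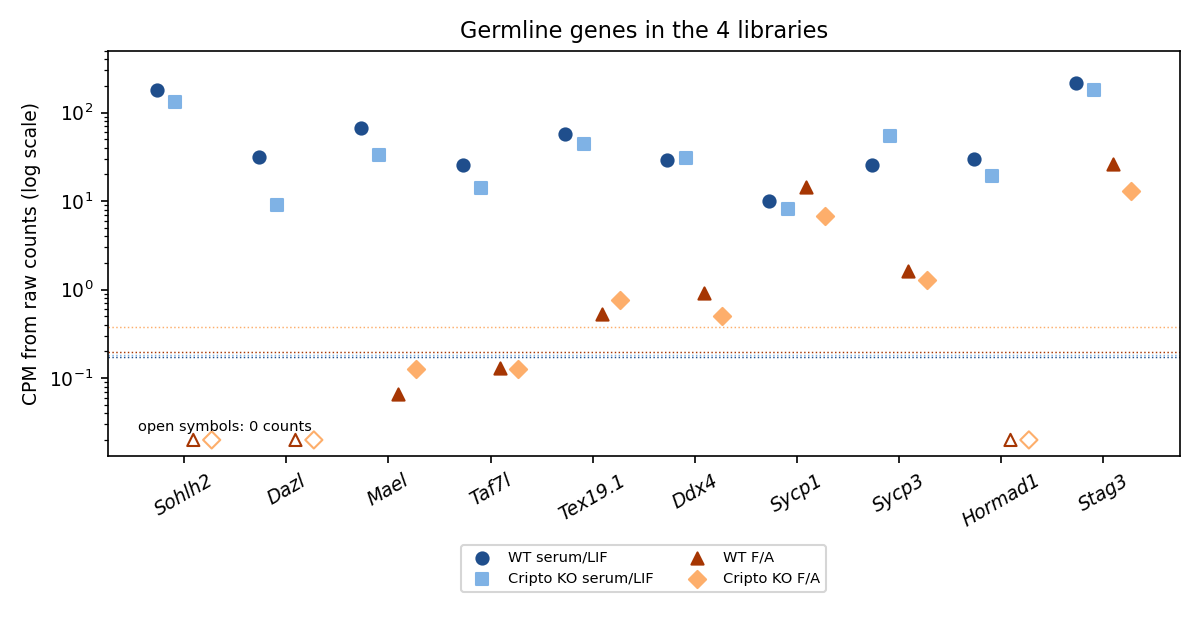
Raw counts, scaled to CPM, of the 10 genes in each of the 4 libraries, on a log axis, with dotted lines at the floor of each library and open symbols for 0 counts. In serum/LIF (circles, squares) all 10 genes lie above the floor, and in F/A (triangles, diamonds) Sohlh2, Dazl, Hormad1, Mael and Taf7l lie at or under it.

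Together the 10 genes held 11602 counts in WT and 8570 in Cripto KO in serum/LIF, or 0.067% and 0.0527% of the library. In F/A they held 662 and 356 counts, or 0.00435% and 0.00226%. Stag3 and Sycp1 made up most of what was left. Between F/A and serum/LIF, 9 of the 10 genes were at least 2-fold lower and 0 at least 2-fold higher in WT, where 20.9% of all genes in the normalized table were lower and 22.1% higher. In Cripto KO, 9 were lower and 0 higher, where 19.4% of all genes were lower and 19.8% higher. The choice of Sohlh2 rested on this contrast, so these counts are a description and nothing is read from them against the background. The median log2 difference over the members was −7.18 in WT and −6.14 in Cripto KO, or −7.04 and −5.65 with the genes at 0 placed at their bound, and over all genes it was −0.07 in both. By size of decrease, with 0 taken as 0.5, Sohlh2 ranked 2 of 15462 genes in WT and 3 in Cripto KO, Mael 12 and 104, Dazl 18 and 75, and Hormad1 20 and 37. The comparisons in WT and in Cripto KO use different libraries, but each shares its libraries with the comparisons between genotypes given below.

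**Figure D3:**
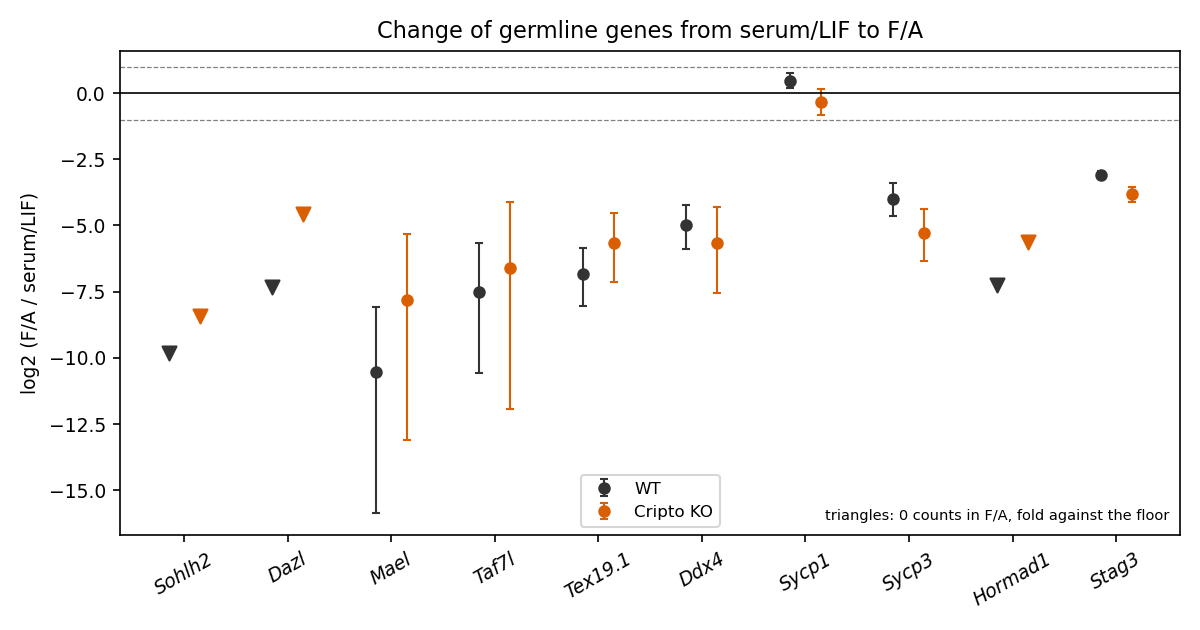
Log2 ratio of F/A to serum/LIF for each of the 10 genes in WT and in Cripto KO, with bars for 95% counting intervals, triangles for genes with 0 counts in F/A placed at their bound, and dashed lines at 2-fold. All genes but Sycp1 lie below the lower dashed line in both genotypes.

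Levels were compared between genes per length, as CPM divided by the kilobases of exon. In WT serum/LIF Sohlh2 stood highest at 75.6, followed by Mael at 43.3, Stag3 at 37.7, Tex19.1 at 30.8, Sycp3 at 20.1 and Hormad1 at 17.3. Taf7l at 11.3, Dazl at 10.4, Ddx4 at 10.1 and Sycp1 at 2.88 completed the order. The counting intervals of neighbours overlapped between Sycp3 and Hormad1, between Taf7l and Dazl and between Dazl and Ddx4. In Cripto KO serum/LIF Sohlh2 was again highest at 55.7, but Sycp3 was next at 43.5, ahead of Stag3 at 31.8, Tex19.1 at 23.6 and Mael at 21.5. Hormad1 at 11, Ddx4 at 10.6, Taf7l at 6.3, Dazl at 3 and Sycp1 at 2.32 followed. In this library the intervals of Tex19.1 and Mael, of Hormad1 and Ddx4, and of Dazl and Sycp1 overlapped.

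In F/A the order was different, with the per-length levels of Stag3 (4.52) and Sycp1 (4.11) on top in WT, whose intervals overlapped, and Sycp3 at 1.3 next. In Cripto KO F/A Stag3 stood at 2.28, Sycp1 at 1.94 and Sycp3 at 1.01, with each interval overlapping the next. The other genes were at 0.323 or less in WT F/A and at 0.407 or less in Cripto KO F/A. Several places depend on the length used, among them that of Stag3. Its exons cover 5733 bases together, while its 9 annotated transcripts have a median length of 989 bases. By that length Stag3 stood first in all 4 libraries, at 218 in WT serum/LIF. There Tex19.1 (53.6) stood above Mael (43.3) and Taf7l (22) above Hormad1 (20.9) by median transcript length. In Cripto KO serum/LIF Taf7l (12.2) then stood above Ddx4 (10.8) and Sycp1 (3.87) above Dazl (3.14).

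The second question of the design is how loss of Cripto bears on these genes within a culture condition. Sohlh2 was chosen by the contrast between cultures, but that contrast uses the same libraries. Earlier results of these data were also known when the members and lists were chosen. The counts below are therefore a description. In serum/LIF 8 of the 10 genes had a lower value in Cripto KO than in WT, against 49.2% of the 15158 genes with a fold. For 7 of these 8 the counting interval lay below equal levels: Sohlh2, Dazl, Mael, Taf7l, Tex19.1, Hormad1 and Stag3. The interval of Sycp1, the remaining gene, held equal levels. The median log2 ratio was −0.42 over the members and 0.00 over all genes. At 2-fold, 2 genes were lower (Dazl and Mael), where 2.5% of all genes were lower, and 1 was higher (Sycp3), where 2.48% were higher. With counting error alone known, whether these differences exceed the spread between cultures cannot be told.

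Dazl showed the largest deficit, 3.31-fold lower in Cripto KO (interval 2.75 to 4). Mael was 2.02-fold lower (1.82 to 2.24), so that its counting interval held values on both sides of the 2-fold threshold, and with TMM or DESeq2 size factors it was no longer past it. Taf7l was 1.71-fold lower (1.45 to 2.01), Hormad1 1.53-fold lower (1.33 to 1.77) and Sohlh2 1.38-fold lower (1.3 to 1.46). For each of these 5 genes the interval stayed below equal levels. Tex19.1 was 1.3-fold lower (1.18 to 1.44) and Stag3 1.21-fold lower (1.15 to 1.27). Ddx4 was 1.08 times as high in Cripto KO (0.948 to 1.22) and Sycp1 0.866 times (0.685 to 1.09), and both intervals held equal levels. Sycp3 went the other way and was 2.18 times as high (1.95 to 2.45), with the limit set by Chpt1 given above. The naive markers had a median log2 ratio of −0.18 in the same comparison, with 3 of 5 below 0.

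In F/A, 5 of the 10 genes were at or under the floor in both genotypes and have no fold (Sohlh2, Dazl, Mael, Taf7l and Hormad1). Of the remaining 5, Sycp1 was 2.02-fold lower in Cripto KO (interval 1.49 to 2.78), a call lost with 5 added to each value, and Stag3 was 2-fold lower (1.6 to 2.51), just under the threshold. At 2-fold, 1 gene (Sycp1) was lower, where 5.23% of all genes were lower, and 0 were higher, where 3.93% were higher. The intervals of Tex19.1 (0.488 to 5.61), Ddx4 (0.161 to 2.14) and Sycp3 (0.384 to 1.93), as the ratio of Cripto KO to WT, held equal levels, and their 8 to 25 counts leave differences of that size undetectable. In this comparison the median log2 ratio moved with transcript length, over the genes with a mean normalized value above 200. It ran from 0.18 in the eighth of these genes with the shortest transcripts to −0.29 in the longest. In eighths by exon length it ran from 0.35 to −0.34. Sycp1 itself was under this cut. In the eighth whose range took in its length the median was 0.03 by transcript length and 0.06 by exon length. In that of Stag3 it was 0.17 by transcript length and −0.09 by exon length, so that its sign turned with the length used. Between cultures the medians also moved with transcript length, from −0.43 to 0.45 in WT and from −0.17 to 0.08 in Cripto KO. By exon length they went from −0.62 to 0.52 in WT and from −0.18 to 0.07 in Cripto KO. The summed level of the primed markers was 1220 CPM in WT and 643 in Cripto KO in F/A, with 3 of 5 in the normalized table at least 2-fold lower and 0 higher. That of the fibroblast markers was 72.2 CPM in WT and 190 in Cripto KO, with 3 of 6 at least 2-fold higher and 0 lower. Their part in the values of Sycp1 and Stag3 was not tested.

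**Figure D4:**
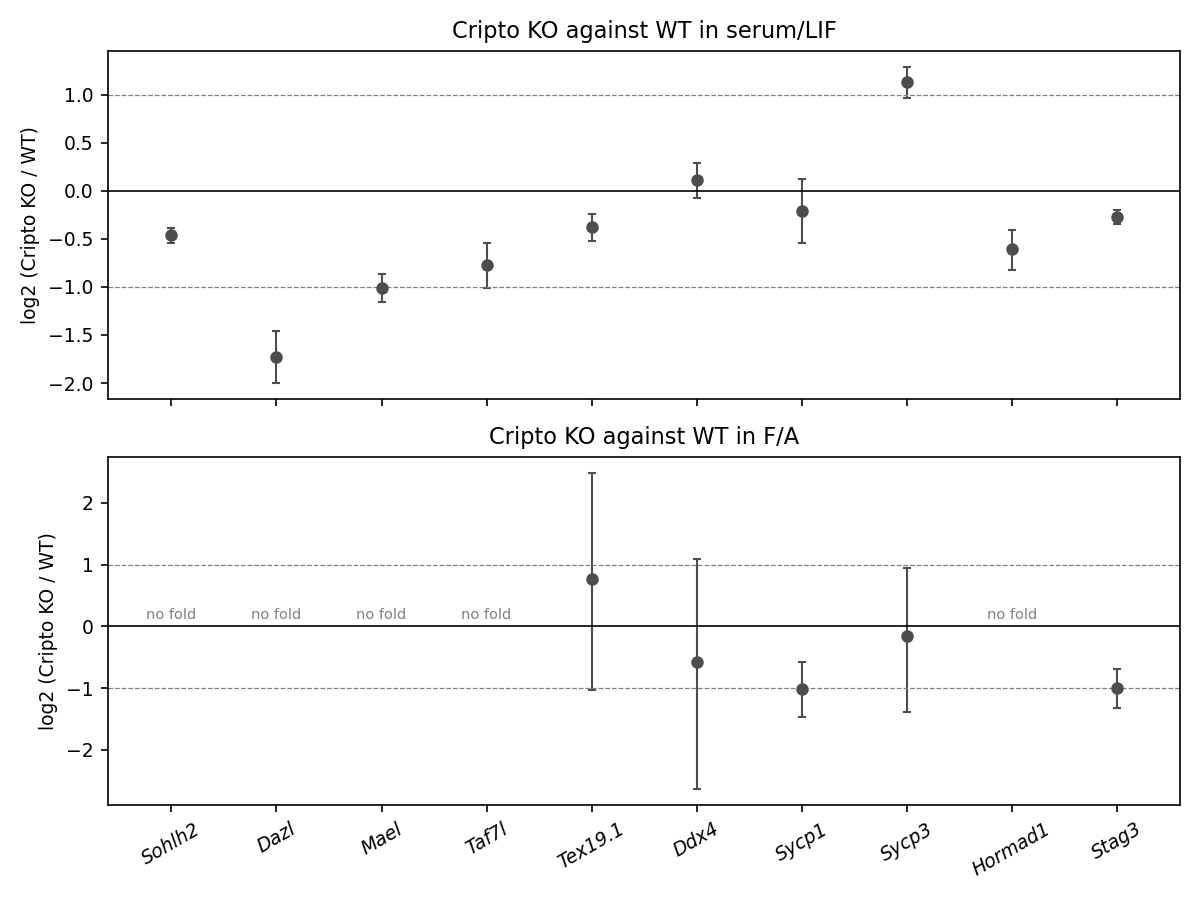
Log2 ratio of Cripto KO to WT for each of the 10 genes in serum/LIF (top) and in F/A (bottom), with bars for 95% counting intervals, dashed lines at 2-fold, and "no fold" where both libraries were at or under the floor. In serum/LIF 8 points lie below 0 and Sycp3 lies above the upper dashed line.

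Other genes of the germline programme were taken from 3 lists. Their counts at 2-fold, and those of the lists after them, stand beside 20.9% of all genes lower and 22.1% higher in F/A in WT, and 19.4% and 19.8% in Cripto KO. Of the germline genes found in the files, 12 were not in the normalized table, with at most 22 counts in any library. In the piRNA pathway 14 of 16 listed genes were in the normalized table, of which 11 were at least 2-fold lower and 2 higher in F/A in WT, and 11 lower and 2 higher in Cripto KO. The lower ones in Cripto KO take in Asz1 and Piwil1, named after their values were seen. Asz1 was at least 1.45-fold lower, so that its call rests on the 0.5 put for 0. Piwil1 was 2.52-fold lower (interval 0.872 to 9.98), which held equal levels. Fkbp6, a co-chaperone of the pathway, had 302 counts in WT and 168 in Cripto KO in serum/LIF and 0 in both F/A libraries. Gtsf1, a cofactor of the PIWI proteins, had 137 and 94 counts and then 0 in both. Piwil4, the nuclear PIWI protein of male germ cells, had 196 and 101 counts in serum/LIF and 1 and 0 in F/A. The list also held genes that went the other way, Tdrd7 and Tdrd5 in WT, and Tdrd7 and Tdrkh in Cripto KO, of which Tdrkh was named after its values were seen. Tdrd7, a tudor protein of germ granules that is also used in the lens, had 50 and 51 counts in serum/LIF and 598 and 410 in F/A. Tdrd5, a further tudor protein, had 303 and 139 counts in serum/LIF and 614 and 284 in F/A, was 1.93 times as high in F/A in Cripto KO, and was 2.23-fold lower in Cripto KO than in WT in F/A (interval 0.371 to 0.54 as a ratio). Tdrkh, a tudor and KH domain protein, had 190 and 123 counts in serum/LIF and 240 and 294 in F/A.

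Among the meiosis genes 12 of 17 were in the normalized table, and 10 were lower and 0 higher in F/A in each genotype, with a median log2 difference of −4.04 in WT and −3.79 in Cripto KO, or −2.77 in Cripto KO with genes at 0 placed at their bound. Syce1, a central element protein of the synaptonemal complex, had 1050 and 739 counts in serum/LIF and 1 and 0 in F/A. Hormad2, the paralogue of Hormad1, had 354 and 176 counts in serum/LIF and 3 and 0 in F/A, and Tex11, an X-linked gene of meiotic recombination, 344 and 211, then 1 and 6. Syce2, which belongs to the same central element as Syce1, kept 178 and 158 counts in F/A from 718 and 593 in serum/LIF. Msh5, a MutS homologue of meiotic crossovers, stayed close to its serum/LIF counts of 134 and 103, at 110 and 90.

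Of 16 listed germ cell regulators 8 were in the normalized table, and 6 were lower and 0 higher in F/A in each genotype. Stra8, the retinoic acid-induced gatekeeper of meiosis, had 466 and 244 counts in serum/LIF and 0 in both F/A libraries. Prdm14, which acts in primordial germ cells and in naive pluripotency, had 749 and 487 counts in serum/LIF and 6 and 0 in F/A. Dmrt1, a transcription factor of the testis, had 1165 and 901 counts and then 80 and 50, and Dnd1, an RNA-binding protein of germ cells, 182 and 145 and then 65 and 38.

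Lower values in Cripto KO in serum/LIF were also seen outside the 10 genes. Of the 34 other germline genes of the 3 lists in the normalized table, 28, or 82.4%, had a lower value in Cripto KO than in WT in serum/LIF, with a median log2 ratio of −0.40, against 49.2% and 0.00 over all genes. At 2-fold 1 of them was lower and 0 were higher. That gene, named after its values were seen, was Asz1, an ankyrin repeat protein of the piRNA machinery, with 118 counts in WT and 9 in Cripto KO. Asz1 was 12.7-fold lower in Cripto KO, with an interval of 0.035 to 0.154 for the ratio. It passed the filter on low values through WT serum/LIF alone, the library in which it was high, so that its call is a description. Over the 33 genes at 1 cpm or more in both serum/LIF libraries, a choice made after seeing the data, 27 had a lower value in Cripto KO, against 49.4% of all genes so chosen, and 0 passed 2-fold in either direction. The F/A count of Asz1 was 0 in both genotypes, so that its difference between cultures in Cripto KO was at least 1.45-fold. In F/A 4 of the 34 were at least 2-fold lower in Cripto KO than in WT and 2 were higher, where 5.23% of all genes were lower and 3.93% higher. The lower ones, named like the higher ones after their values were seen, were Tdrd5, Mov10l1, Boll and Prdm14. The higher ones were Piwil1, with 0 counts in WT and 8 in Cripto KO, and Tdrd9, with 5 and 14. Piwil1 was at least 2.58-fold higher. The Tdrd9 ratio of 3 had an interval of 0.82 to 12, which held equal levels. Mov10l1 and Prdm14 had 6 counts in WT and 0 in Cripto KO, a difference of at least 1.03-fold, so that their place at 2-fold rests on the value of 0.5 put for 0.

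Genes that repress the germline programme were also compared. Of the 12 listed genes of PRC1.6 and its partners, 2 were at least 2-fold lower and 2 higher in F/A in WT, and 3 lower and 2 higher in Cripto KO, shares near those of all genes (20.9% and 22.1% in WT, 19.4% and 19.8% in Cripto KO). Higher in F/A were E2f6, with 466 and 426 counts in serum/LIF and 935 and 1290 in F/A, and Yaf2, a subunit shared by several polycomb complexes, with 191 and 209 and then 646 and 978. L3mbtl2, a subunit of PRC1.6, was lower, with 2568 and 2928 counts in serum/LIF and 1123 and 1116 in F/A. Mga had 5555 and 6996 counts in serum/LIF, and 4587 in WT against 2420 in Cripto KO in F/A. The Mga ratio of F/A to serum/LIF was 0.904 in WT and 0.37 in Cripto KO. Between the genotypes 0 of the 12 genes passed 2-fold in either condition, where 2.48% to 5.23% of all genes did in each direction.

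Of 8 genes of DNA methylation and demethylation, 4 were lower and 2 higher in F/A in WT, and 3 lower and 1 higher in Cripto KO. Dnmt3l, the cofactor of the de novo methyltransferases, had 4926 and 4522 counts in serum/LIF and 13 and 8 in F/A. Among the TET enzymes, which oxidize methylated cytosine, Tet2 had 4451 and 4529 counts in serum/LIF and 340 and 210 in F/A, and Tet1 5210 and 8346 and then 1398 and 860. Tet3 went from 355 and 416 counts in serum/LIF to 2787 and 2428 in F/A. Dnmt3b, a de novo methyltransferase, had 1593 and 1971 counts in serum/LIF and 3515 and 2384 in F/A. It was 2.35 times as high in F/A in WT (2.21 to 2.49) and 1.27 times in Cripto KO (1.18 to 1.36), and is the gene called in WT alone among the higher ones. In F/A its ratio of Cripto KO to WT was 0.685 (0.641 to 0.732). Dnmt3a, the other de novo enzyme, had 1182 and 1082 counts in serum/LIF and 1809 and 1900 in F/A, and Dnmt1, the maintenance enzyme, 7426 and 7586 and then 4202 and 4276. These 3 genes were named after their values were seen. DNA methylation itself was not measured in these libraries.

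**Figure D5:**
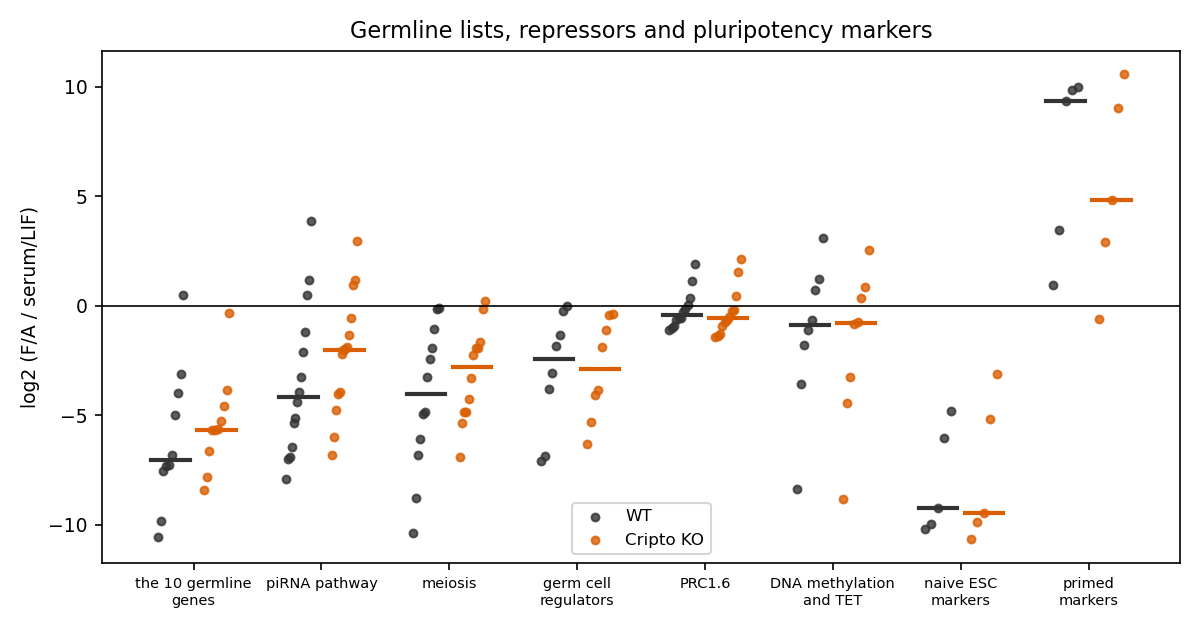
Log2 ratio of F/A to serum/LIF for each gene of 8 lists in WT and in Cripto KO, with a bar at the median of each list and genes with 0 counts in 1 library placed at their bound. The 3 other germline lists have their medians below 0, as the 10 genes do. The PRC1.6 medians are −0.41 in WT and −0.58 in Cripto KO. The primed markers have medians above 0, with 1 gene below 0 in Cripto KO.

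Between cultures the genes that flank the members on the chromosome had shares near those of all genes, but single neighbours differed strongly. Of the 20 nearest genes, 4 were at least 2-fold lower and 5 higher in F/A in WT, and 4 lower and 4 higher in Cripto KO, with median log2 differences of −0.14 and −0.15. Of all genes 20.9% were lower and 22.1% higher in WT, and 19.4% and 19.8% in Cripto KO. The neighbours that follow were named after their values were seen. Gpa33 beside Mael had log2 differences of −6.64 in WT and −6.52 in Cripto KO, and Tspan2 beside Sycp1 3.03 and 2.79. A730037C10Rik beside Sohlh2 was at least 2-fold lower in each comparison. Tex19.2 beside Tex19.1, lower in both genotypes, is itself in the piRNA list. Between the genotypes 1 of the 20 was lower in Cripto KO and 0 were higher in serum/LIF, where 2.5% and 2.48% of all genes were. In F/A 2 were lower and 1 higher, where 5.23% and 3.93% of all genes were.

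Likeness to Sohlh2 was measured over the 4 libraries as the distance between the log2 levels of 2 genes, each relative to its own mean, and 10811 genes with enough counts were ranked. The 5 nearest were Rpl10l (distance 0.37), Ooep (0.73), Nphs1 (0.79), Nr0b1 (0.83) and Tcl1 (1.27). Rpl10l is a ribosomal protein retrogene used in the testis, Ooep belongs to the maternal complex of the oocyte, Nphs1 encodes nephrin of the kidney filter, Nr0b1 is a nuclear receptor of naive ESCs and Tcl1 is a kinase cofactor of early embryos. Ooep had 2594 counts in WT and 1641 in Cripto KO in serum/LIF and 1 and 0 in F/A, and Tcl1 had 1395 and 1438, then 1 and 0. With 4 libraries, each gene that is high in serum/LIF and at 0 in F/A is near Sohlh2 by this measure, and none of the 5 was a member of the set.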

How the data were processed

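The data are 4 RNA-seq libraries of R1 mouse ESCs, 1 per condition. The authors aligned the reads with TopHat2 2.0.13 to NCBIM37 (mm9), counted them per gene with HTSeq 0.6.1p1 on the Ensembl 67 annotation, and deposited raw counts. The strand option is not given in the sources used here. The authors also deposited a signal made from these counts, the quantile-normalized values (preprocessCore 1.28.0) of the genes kept by the NOISeq 2.8.0 filter at 1 cpm. These values were rebuilt from the raw counts with a largest difference of 0.

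Gene symbols, coordinates and lengths came from Ensembl 65 on mm9, which named 99.8% of the normalized table. Each column was matched by its name to its sample, and 0 were left over. Ratios used the normalized values with 0 replaced by 0.5. A gene was called at 2-fold or more, unless both libraries were at or under the floor (3 counts, or 6 in Cripto KO F/A). A library at 0 gave a bound from the raw counts scaled by library totals. A library above 0 but at or under the floor kept its ratio where the other library was above the floor. Intervals came from scipy 1.17.1 under Python 3.11.15. With 1 library per condition no test was made. Per-length levels used the bases covered by any exon.

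The 10 members and all lists were chosen with earlier results of these data known. From the germline, PRC1.6 and DNA methylation lists the text names the 3 genes with the largest WT difference between cultures and the 2 with the largest Cripto KO to WT ratio in F/A, all with at least 50 counts, and the 5 genes nearest to Sohlh2 (at least 200 counts). The same rule also chose genes of the marker lists, which are given mainly by their sums and counts. Genes named outside the rule are marked in the text. Henmt1, Meiob, Tfap2c, Tfcp2l1, Tcstv1, Tcstv3 and Usp17lc were not analysed here. Alternatives were other scalings (library totals, TMM of edgeR 4.0.16, size factors of DESeq2 1.42.0), other filters, a 4-fold threshold, 5 added to each value, halved counts of Cripto KO F/A, a rewritten NOISeq-sim at a probability of 0.95, and transcript length. The call and interval scripts were tested on simulated data.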

Additional observations from a re-analysis of the deposited data

Results flagged for a closer look

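For 4 differences the effect had opposite signs under the same contrast in 2 groups. With 1 library per condition none of these differences was tested. The log2 ratio of F/A to serum/LIF of Sycp1 was 0.47 in WT and −0.33 in Cripto KO, a difference of −0.80. The log2 ratio of Cripto KO to WT of Tex19.1 was −0.38 in serum/LIF and 0.77 in F/A, a difference of 1.15, and its F/A ratio rests on 8 and 12 counts. The same ratio of Ddx4 was 0.11 in serum/LIF and −0.57 in F/A, a difference of −0.68, on 14 and 8 counts in F/A. That of Sycp3 was 1.13 in serum/LIF and −0.16 in F/A, a difference of −1.29, on 25 and 20 counts in F/A. The counting interval of the F/A ratio held equal levels for Tex19.1, Ddx4 and Sycp3, as did that of the Cripto KO ratio of Sycp1.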

How the results depend on the processing

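Both counts of members between culture conditions, 9 lower and 0 higher in WT and in Cripto KO, kept their size under the 9 alternatives. In F/A the 1 member lower in Cripto KO, Sycp1, became 0 with 5 added, at 4-fold and with NOISeq-sim. In serum/LIF the 2 lower members became 1 (Dazl) with TMM, with DESeq2 size factors and with NOISeq-sim, and 0 at 4-fold, and the 1 higher member, Sycp3, became 0 at 4-fold and with NOISeq-sim. Of 245 log2 ratios of members under alternatives 241 stayed within their counting interval or, for genes at 0, at or beyond their bound, 4 did not, and 0 changed sign. With 5 added, the WT log2 differences between cultures were −9.20 for Sohlh2, −6.70 for Dazl, −7.61 for Mael and −6.63 for Hormad1. For genes at 0 in Cripto KO they were −8.73 for Sohlh2, −5.00 for Dazl and −6.03 for Hormad1, from −12.05, −8.28 and −9.33 with 0 taken as 0.5. By median transcript length 16 of 30 levels moved. Over all genes, library totals turned the split of lower and higher genes from 386 and 384 to 481 and 254 in serum/LIF, and from 809 and 608 to 1053 and 519 in F/A. NOISeq-sim called 1646 and 1848 genes between cultures in WT and 1552 and 1710 in Cripto KO, 119 and 130 between genotypes in F/A and 30 and 27 in serum/LIF. At 4-fold these were 1496 and 1782, 1473 and 1630, 165 and 164, and 80 and 61. Genes with a mean of at least 50 counts gave 429 and 288 in F/A and 130 and 162 in serum/LIF. With no filter they were 2082 lower in F/A, and 1246 and 695 in serum/LIF, and with 5 added 220 and 183 in serum/LIF. No paired analysis was possible because each condition has 1 library. The same holds for leaving out a replicate.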
